A study of Mus musculus with 8 samples.

Results

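The bone formation mRNAs *Runx2* and *Bglap1* were measured in knee joints of 8 inbred mouse strains that differ in how well they heal injured cartilage. They were chosen by name and are 2 of the 67 target mRNAs of the assay. *Runx2* was on the first panel, which held 33 targets, and *Bglap1* on the second, which held 34. The healer strains were LG/J, MRL/MpJ and LGXSM-6, the non-healer strains were SM/J, C57BL6/J and LGXSM-33, and LGXSM-5 and LGXSM-35 were intermediate healers. The 4 LGXSM lines are recombinant inbred lines whose parents are LG/J and SM/J. All mice had a full-thickness injury of the knee cartilage at 8 weeks of age and their joints were taken 16 weeks later, so every group was injured and no uninjured knee entered the comparisons. Each strain is 1 labelled sample, made from the joints of 3 to 4 mice per the study's methods, and the homogenate mixed cartilage and growth plate with the bone beneath, the meniscus, the synovium and the capsule of the joint. In such a mixture, fewer cells of a type and less RNA per cell cannot be told apart.

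RUNX2 is the transcription factor that commits mesenchymal cells to the osteoblast lineage, and it also drives the hypertrophic maturation of growth plate chondrocytes. *Bglap1* is the older name of the mouse osteocalcin gene. Osteocalcin is a small protein that osteoblasts secrete late in their differentiation and that binds to bone mineral, and its gene is a classic target of RUNX2. In bone the pair therefore marks an early and a late step of formation, while *Runx2* in this homogenate may also come from growth plate chondrocytes.

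In the RefSeq annotation of GRCm38.p6, *Runx2* spans chr17:44495987-44814797 on the minus strand. The annotation gives *Bglap1* as an older name of both *Bglap*, at chr3:88383495-88384466, and its neighbour *Bglap2*, at chr3:88377736-88378701. The study's probe list ties the assay to *Bglap*, and whether the probes also bind the closely related *Bglap2* was not tested. RUNX proteins bind a core motif spelled ACCACA, or TGTGGT on the other strand. The motif was searched on both strands in the 250 bases before the gene start in the RefSeq promoter windows, and 14.0% of all 32851 windows held it. Single windows were given for *Bglap*, *Runx2* and *Mmp13*, the collagenase gene whose strain pattern was most like that of *Runx2*, and each held 1 match. The windows of *Col10a1*, *Ihh* and *Vegfa*, other genes known to be regulated by RUNX2, held no match, and *Col1a1* was not searched. The 3 matches are shown with 12 bases on each side, 5′ to 3′ on the strand of the gene, with the motif in capitals.
Bglap, chr3:88384581-88384610, minus strand, 132 bases before the gene start: ccgcaatcacctACCACAgcatcctttggg
Runx2, chr17:44814690-44814719, minus strand, 80 bases before the start used for its window and inside the annotated gene: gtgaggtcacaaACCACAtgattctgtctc
Mmp13, chr9:7272384-7272413, plus strand, 118 bases before the gene start: attctgccacaaACCACActtaggaagaaa
The matches describe the reference sequence of C57BL/6J and were not tied to the strain differences.

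The measurement was a QuantiGene Plex assay, in which each mRNA is caught by its own probes on a coded bead and read through branched DNA. The deposited normalized value of a target is what remains of its log10 signal after regression on the panel's reference genes (*Gapdh*, *Hprt1* and *Actb* in the first, *Gapdh* and *Hprt1* in the second), so 0 is the level predicted from the reference genes. Levels of the 2 mRNAs cannot be set against each other, since each has its own probes. The first panel gave 76 and the second 78 numbered signals, called assay replicates here, with 8 to 12 per strain. The signals were grouped by number into blocks of up to 3 consecutive signals, called runs here. Signals of a run were often alike but not always (*Runx2* signals of 357.5, 614 and 408 in run 4 of LGXSM-6). There were 26 runs in each panel, with 4 runs in LGXSM-6 and LGXSM-33 and 3 in every other strain. Their number follows from this grouping and matches the 3 to 4 mice per strain of the study's methods, and the files do not say whether a run is a mouse. Run deviations of the *Gapdh* signal from the strain mean correlated at *r* = 0.98 between the panels over the 26 runs, given as a description since the files do not tie a run of one panel to a run of the other. In addition, 1 SM/J run had far lower signals than the others in both panels (*Gapdh* signals of 346 to 497 in the second panel, against 3091 to 4577 in the other SM/J runs). Of the spread within strains, 82.9% of the sum of squares lay between runs for *Runx2* and 97.6% for *Bglap1*, against a median of 77.0% over the 67 targets. *P* values over assay replicates measure only the spread between these signals, which may be technical, so tests were repeated over run means, an alternative chosen after the data were seen.

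*Runx2* was highest in LG/J and LGXSM-6, while all assay replicates of C57BL6/J, LGXSM-5 and LGXSM-35 were below the level predicted from the reference genes. In LG/J the normalized level ran from 0.060 to 0.196 with a median of 0.111 (mean 0.122 ± 0.055 SD, n = 8 assay replicates). In LGXSM-6 it ran from −0.051 to 0.152 with a median of 0.067 (0.067 ± 0.062, n = 12). All 8 values of LG/J were above 0, as were 10 of the 12 values of LGXSM-6.

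In MRL/MpJ the range of *Runx2* was the widest of the 8 strains, from −0.120 to 0.210 with a median of −0.047 (0.014 ± 0.126, n = 9). The first run averaged 0.178, and the other runs −0.050 and −0.086. In the first run the *Runx2* signals, 340 to 371, were close to those of the other runs, 364 to 525. The reference signals were lower in it, at 96 to 113 for *Hprt1* against 229 to 337, and at 4555 to 5078 for *Actb* against 11606 to 14668. Their part in the high normalized value was not tested.

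In SM/J *Runx2* ran from −0.071 to 0.027 with a median of −0.002 (−0.011 ± 0.036, n = 8), and in LGXSM-33 from −0.107 to 0.059 with a median of −0.014 (−0.017 ± 0.049, n = 12). In LGXSM-5 it ran from −0.098 to −0.006 with a median of −0.048 (−0.049 ± 0.032, n = 9). These 3 strains sat in the middle of the order, and their values overlapped. In C57BL6/J *Runx2* ran from −0.118 to −0.001 with a median of −0.032 (−0.053 ± 0.040, n = 9). In LGXSM-35 it ran from −0.144 to −0.020 with a median of −0.064 (−0.072 ± 0.041, n = 9). No value of either strain reached 0.

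*Bglap1* had a different order and a wider spread. It was highest in LGXSM-6, from 0.047 to 0.409 with a median of 0.182 (0.207 ± 0.130, n = 12). LG/J followed with values from 0.018 to 0.189 and a median of 0.082 (0.097 ± 0.058, n = 9). Every assay replicate of both strains was above 0.

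SM/J was split by run, with *Bglap1* from −0.060 to 0.368 and a median of −0.013 (0.094 ± 0.188, n = 9). Its last run averaged 0.343 and the other runs −0.046 and −0.014, so that its mean lay above 6 of its 9 values. In C57BL6/J *Bglap1* ran from −0.045 to 0.115 with a median of 0.006 (0.026 ± 0.062, n = 9). In LGXSM-33 it ran from −0.116 to 0.053 with a median of −0.004 (−0.018 ± 0.061, n = 12).

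In the other 3 strains every *Bglap1* value was below 0. LGXSM-5 ran from −0.326 to −0.056 with a median of −0.100 (−0.152 ± 0.108, n = 9). MRL/MpJ ran from −0.375 to −0.099 with a median of −0.20 (−0.224 ± 0.109, n = 9). LGXSM-35 was lowest, from −0.342 to −0.234 with a median of −0.267 (−0.272 ± 0.034, n = 9). The lowest strains thus held both intermediate healers and 1 healer.

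**Figure D1:**
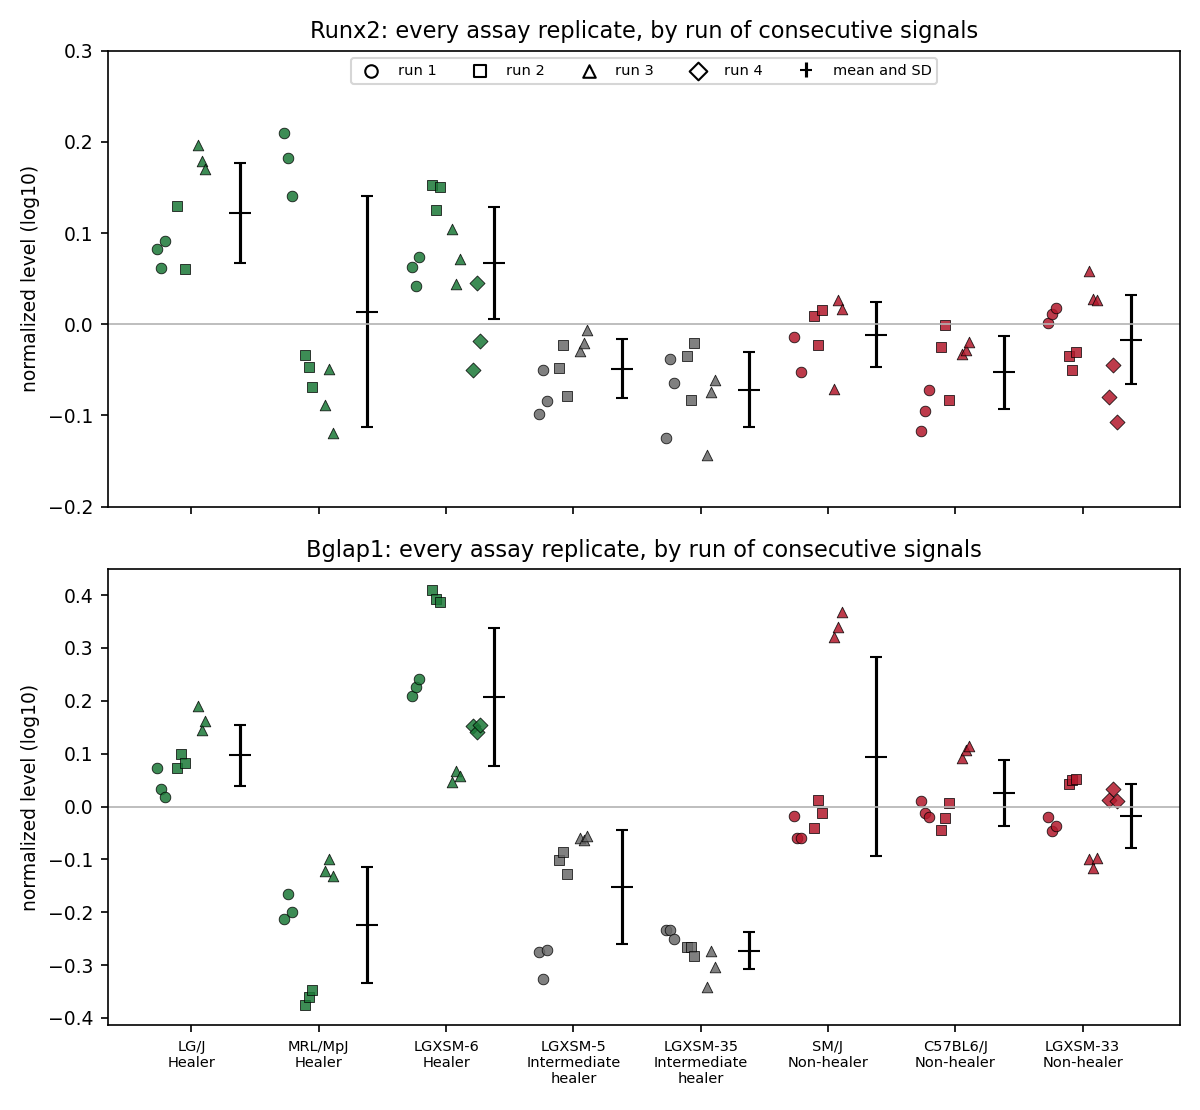
Normalized level (log10, residual after regression on the reference genes) of *Runx2* (top) and *Bglap1* (bottom) in every assay replicate of the 8 strains; marker shapes are runs of consecutive signals, colours are healing classes, and the black bar is the mean with its SD. For *Bglap1* the points of a run lie close together. MRL/MpJ is split for *Runx2* (run means 0.178, −0.050 and −0.086), and 1 SM/J run lies at 0.343 for *Bglap1*.

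The strains differed in both mRNAs over assay replicates (limma moderated *F* test, Benjamini-Hochberg adjusted over 67 targets). For *Runx2* the highest and lowest strain, LG/J and LGXSM-35, were 0.64 apart on the log2 scale (1.56-fold, adjusted *P* = 9.45e-08). For *Bglap1*, LGXSM-6 and LGXSM-35 were 1.59 apart (3.02-fold, adjusted *P* = 5.79e-17). Of the 67 targets 82.1% passed this test, so passing it does not set either mRNA apart. Over run means 14.9% passed. *Bglap1* was among them (adjusted *P* = 4.69e-04) ranking 3 of 67 by its *F* ratio, and *Runx2* was not (adjusted *P* = 0.110). The share of variance between strains, H2, was 49.0% for *Runx2* (jackknife SE over strains 22.6, n = 8 strains) and 71.9% for *Bglap1* (SE 11.4). Over run means the shares were 41.6% and 64.2%. Without normalization H2 of *Bglap1* was 42.5%, and over run means *Bglap1* then did not pass (adjusted *P* = 0.0716) while *Runx2* did (adjusted *P* = 0.00852).

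Of the 28 pairs of strains, 12 differed in *Runx2* and 20 in *Bglap1* over assay replicates (limma, adjusted over the 28 pairs of all 67 targets), where 29.5% of all pairs and targets passed. Without normalization 15 and 7 pairs passed. Each of the 12 *Runx2* pairs had LG/J, LGXSM-6 or MRL/MpJ as the higher strain. The assay replicates did not overlap in 5 *Runx2* pairs and 12 *Bglap1* pairs, against 7.25% of pairs over all targets. Every non-overlapping *Runx2* pair had LG/J as the higher strain. Over run means 0 *Runx2* pairs (8 at an unadjusted *P* under 0.05) and 7 *Bglap1* pairs passed by limma, against 3.2% of pairs over all targets. These 7 were LGXSM-6 over LGXSM-35 (1.59 on the log2 scale), LGXSM-6 over MRL/MpJ (1.43) and over LGXSM-5 (1.19), and LG/J and SM/J each over LGXSM-35 (1.23 and 1.22) and over MRL/MpJ (1.07 and 1.06). For LGXSM-6 over LGXSM-35 the SE was 0.27 over run means (limma adjusted *P* = 7.36e-04) and 0.15 over assay replicates.

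In the order of means, no neighbouring strains differed in *Runx2* (adjusted *P* from 0.148 to 0.938 over assay replicates and from 0.699 to 0.987 over run means). The order was LG/J, LGXSM-6, MRL/MpJ, SM/J, LGXSM-33, LGXSM-5, C57BL6/J and LGXSM-35. For *Bglap1* the order was LGXSM-6, LG/J, SM/J, C57BL6/J, LGXSM-33, LGXSM-5, MRL/MpJ and LGXSM-35. Here 1 step passed, LGXSM-33 over LGXSM-5 (0.44 on the log2 scale, adjusted *P* = 0.0181), and it did not pass over run means (adjusted *P* = 0.456).

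The order depended on the scale. Without normalization LGXSM-6 had the highest geometric mean signal of both mRNAs, 672 for *Runx2* and 4579 for *Bglap1*, and SM/J the lowest, 109 and 1067. *Hprt1* and *Actb* had the same highest and lowest strains, with *Hprt1* in the first panel at 323 in LGXSM-6 and 42.7 in SM/J, while *Gapdh* was highest in LGXSM-33 and lowest in C57BL6/J (17132 and 6385 in the first panel). The reference genes together fitted 90.1% of the variance of the *Runx2* signal and 61.2% of that of *Bglap1*. As a log10 ratio to the mean of the reference genes, *Runx2* stayed highest in LG/J (−0.732 ± 0.044) and lowest in LGXSM-35 (−0.962 ± 0.059). LGXSM-33 fell to nearly the same level as LGXSM-35 (−0.960 ± 0.058). MRL/MpJ (−0.872 ± 0.148) fell below SM/J and C57BL6/J (−0.851 ± 0.163 and −0.826 ± 0.034). For *Bglap1* the ratio left LGXSM-6 highest (0.660 ± 0.162) and LGXSM-35 lowest (0.192 ± 0.055), with SM/J slightly above LG/J (0.591 ± 0.180 and 0.586 ± 0.051).

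**Figure D2:**
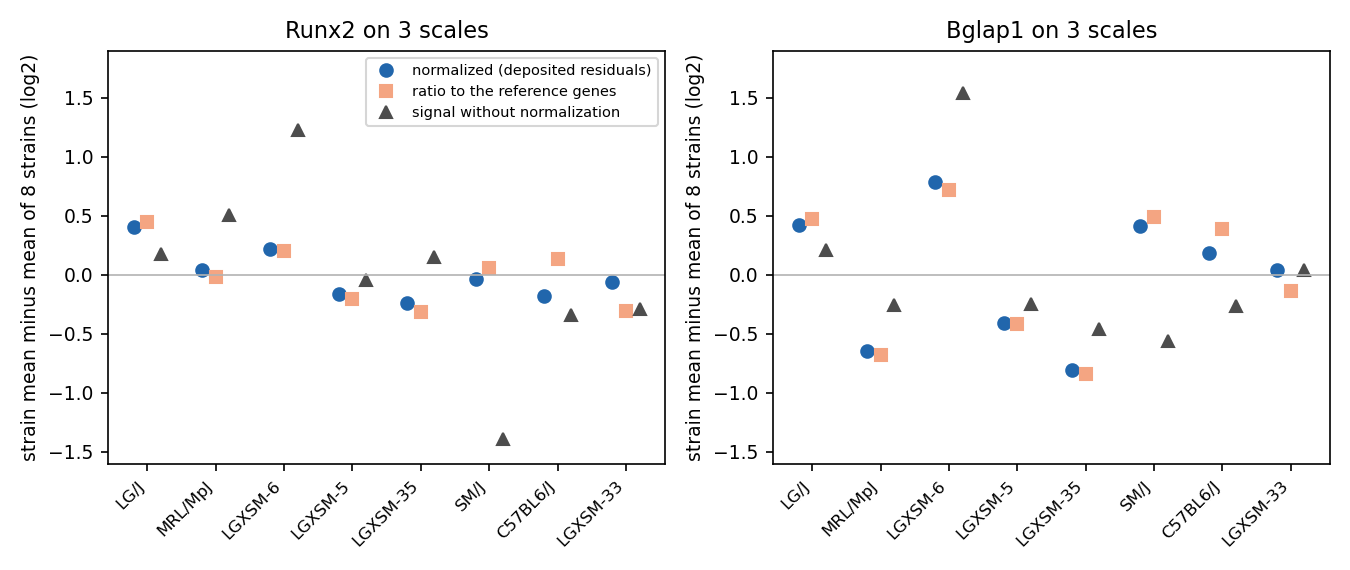
Strain means of *Runx2* (left) and *Bglap1* (right) minus the mean of the 8 strains, in log2 units, on 3 scales: deposited normalized values (circles), ratio to the reference genes (squares) and signal without normalization (triangles). The unnormalized signal stands apart in LGXSM-6 and SM/J, while the normalized values and the ratio place LG/J and LGXSM-6 above the mean and LGXSM-5 and LGXSM-35 below it for both mRNAs.

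Healers were set against non-healers in 3 pairs. *Runx2* was higher in LG/J than in SM/J by 0.44 on the log2 scale (1.36-fold, SE 0.11, 95% interval 0.23 to 0.65, limma adjusted *P* over 67 targets 8.41e-04), a comparison in which 23.9% of targets passed. The assay replicates of these strains did not overlap, and the run means did not overlap either. *Runx2* was higher in LGXSM-6 than in LGXSM-33 by 0.28 (1.21-fold, SE 0.09, 0.11 to 0.45, adjusted *P* = 0.0122, with 20.9% of targets passing), and the assay replicates overlapped. This call was lost without run 2 of LGXSM-6 (0.20, adjusted *P* = 0.159) and without run 4 of LGXSM-33 (0.21, adjusted *P* = 0.0945). The sizes depended on the scale: as a ratio to the reference genes LGXSM-6 was 0.51 above LGXSM-33 (adjusted *P* = 3.67e-04), and without normalization it was 1.52 above (adjusted *P* = 1.01e-07) and LG/J 1.57 above SM/J (adjusted *P* = 7.49e-06).

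Between MRL/MpJ and C57BL6/J *Runx2* did not pass (0.22, SE 0.10, 0.02 to 0.42, adjusted *P* = 0.136, with 14.9% of targets passing), and without the first MRL/MpJ run the value was −0.05 (adjusted *P* = 0.770). Without either of the other MRL/MpJ runs it passed (0.33 and 0.39, adjusted *P* = 0.0170 and 0.00269). Without normalization it passed at 0.85 (adjusted *P* = 0.00560), and as a ratio to the reference genes the direction turned (−0.15, adjusted *P* = 0.377). Over run means none of the 3 *Runx2* differences passed (adjusted *P* = 0.242, 0.933 and 0.601 for LG/J, MRL/MpJ and LGXSM-6). The differences did not pass the test of differing from each other either (adjusted *P* from 0.384 to 0.792).

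Over assay replicates *Bglap1* took a different course in each pair. LG/J and SM/J had almost the same mean (difference 0.01 on the log2 scale, SE 0.16, interval −0.31 to 0.33, adjusted *P* = 0.973, run means 0.983), although without the last SM/J run LG/J was higher by 0.42 (adjusted *P* = 0.0221). MRL/MpJ was lower than C57BL6/J by 0.83 (log2 difference −0.83, 1.78-fold, SE 0.16, adjusted *P* = 5.81e-05), and neither the assay replicates nor the run means overlapped. LGXSM-6 was higher than LGXSM-33 by 0.75 (1.68-fold, SE 0.14, adjusted *P* = 1.01e-05). Its run means were all above those of LGXSM-33, while single assay replicates overlapped. Over run means neither of these passed (adjusted *P* = 0.182 and 0.0748, unadjusted 0.00740 and 0.00558), and over run means limma called 0 of 67 targets in the LGXSM-6 pair (8 at an unadjusted *P* under 0.05) and 1 in the MRL/MpJ pair. Without normalization the difference of MRL/MpJ from C57BL6/J was 0.01 (adjusted *P* = 0.983).

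The differences in *Bglap1* were themselves unequal over assay replicates (limma). The MRL/MpJ difference was 1.57 log2 units below that of LGXSM-6 (value −1.57, SE 0.21, adjusted *P* = 8.23e-09), and this passed over run means too (adjusted *P* = 0.0200). The LG/J difference was 0.84 above that of MRL/MpJ and 0.74 below that of LGXSM-6 (value −0.74), and over run means neither comparison passed (adjusted *P* = 0.639 and 0.374). The share of the targets that passed such comparisons is not given here.

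**Figure D3:**
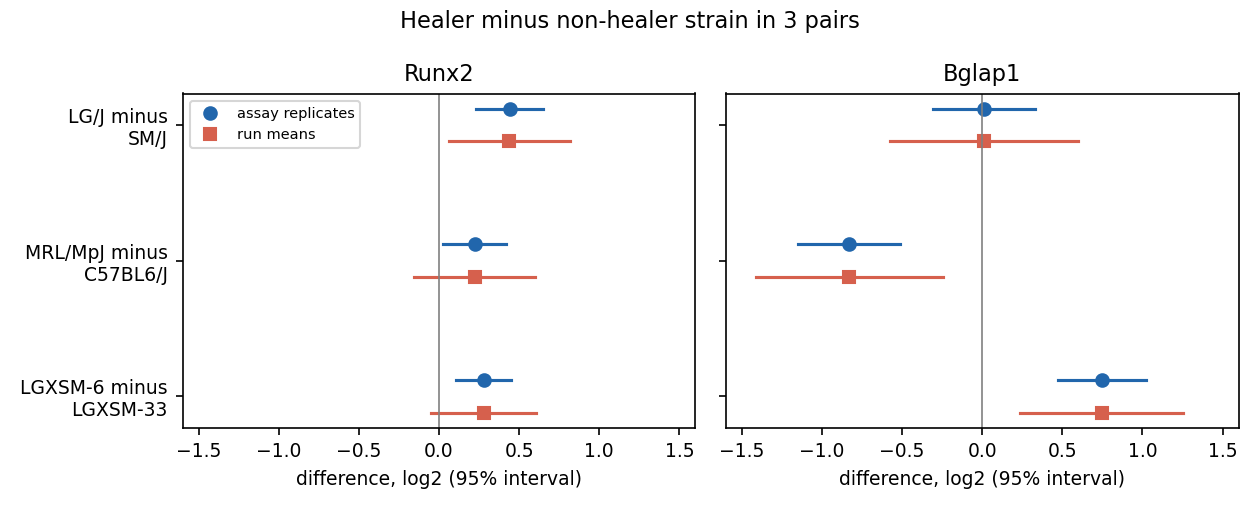
Difference of the healer from the non-healer strain in 3 pairs, in log2 units with 95% intervals from limma, for *Runx2* (left) and *Bglap1* (right), over assay replicates (circles) and over run means (squares). All 3 *Runx2* differences are above 0 (0.44, 0.22 and 0.28), while those of *Bglap1* are 0.01, −0.83 and 0.75.

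With each strain as 1 value, all 3 healers were above all 3 non-healers in *Runx2* (means 0.068 ± 0.054 and −0.027 ± 0.022 SD on the log10 scale, n = 3 and 3, exact permutation test, two-sided *P* = 0.1, the smallest value that this design allows). The gap was narrow, from 0.014 in MRL/MpJ to −0.011 in SM/J. Of the 67 targets 10.4% had healers above non-healers in this way, and 22.4% were higher in the healer in all 3 pairs. Adjusted over the 67 targets, *P* was 0.744. Without the first MRL/MpJ run, with strain medians or on the ratio scale the groups overlapped (*P* = 0.4 in each, exact permutation test). Without normalization healers were 1.31 log2 units above non-healers in *Runx2*, against 0.31 with it and 0.20 with strain medians. In *Bglap1* the groups were alike in mean and overlapped (0.027 ± 0.224 and 0.034 ± 0.056, *P* = 1, exact permutation test), with healers at both ends. The direction of this small difference (−0.02 on the log2 scale) turned without normalization (0.76, exact permutation *P* = 0.2) and without MRL/MpJ (0.39), and without LGXSM-6 the value was −0.32. The intermediate healers averaged −0.060 in *Runx2* and −0.212 in *Bglap1*, below the means of both other classes.

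The 4 recombinant lines were set beside their parents. For *Bglap1* LG/J and SM/J were at 0.097 and 0.094, so close that nearly any other value lies outside them, and LGXSM-6 lay above and the other 3 lines below. Without its last run SM/J was at −0.030, and LGXSM-33 then lay between the parents. LGXSM-35 was lower than both parents over assay replicates and run means (adjusted *P* over run means 0.0135 and 0.0136). LGXSM-5 was lower than both over assay replicates (0.83 and 0.82 on the log2 scale, adjusted *P* = 3.13e-05 and 3.73e-05) and not over run means (0.117 and 0.119). LGXSM-6 was higher than SM/J over assay replicates (0.37, adjusted *P* = 0.0491, run means 0.555) and did not pass against LG/J (0.36, adjusted *P* = 0.0561, run means 0.560). LGXSM-33 was lower than LG/J over assay replicates (0.38, adjusted *P* = 0.0447, run means 0.540) and did not pass against SM/J (0.37, adjusted *P* = 0.0509, run means 0.555). For *Runx2* the mean of LGXSM-6 lay between those of the parents, and those of LGXSM-5, LGXSM-33 and LGXSM-35 were 0.12, 0.02 and 0.20 log2 units under that of SM/J, none of which passed (adjusted *P* = 0.383, 0.911 and 0.136, run means 0.820, 0.987 and 0.692).

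Across the 8 strain means *Runx2* and *Bglap1* had *r* = 0.61 (*P* = 0.113) and *rho* = 0.67 (*P* = 0.0831, both from exact permutation of the strains). This was 1 relation, so no adjustment was made. Without LG/J and LGXSM-6, the strains farthest from the median *Runx2* level, *r* was 0.20 (exact permutation *P* = 0.721, n = 6). Leaving out strains at the ends of the *Runx2* range narrows it, and without LG/J alone *r* was 0.60 and without LGXSM-6 alone 0.50. With strain medians *r* was 0.82 (exact permutation *P* = 0.0132), with the ratio to the reference genes 0.75 (*P* = 0.0372, exact) and without the first MRL/MpJ run 0.76 (*P* = 0.0244, exact). Without the last MRL/MpJ run it was 0.40. Among LG/J, SM/J and their 4 recombinant lines alone *r* was 0.80 (exact permutation *P* = 0.0625, n = 6). Between runs within strains, with each run's deviation from its strain mean, *r* was 0.23 over 26 runs, given as a description because the match of run numbers between the panels rests on the reference signals. *Bglap1* was the 13th most like *Runx2* of the 66 other targets by *r* over strain means, and *Runx2* was the 10th most like *Bglap1*.

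**Figure D4:**
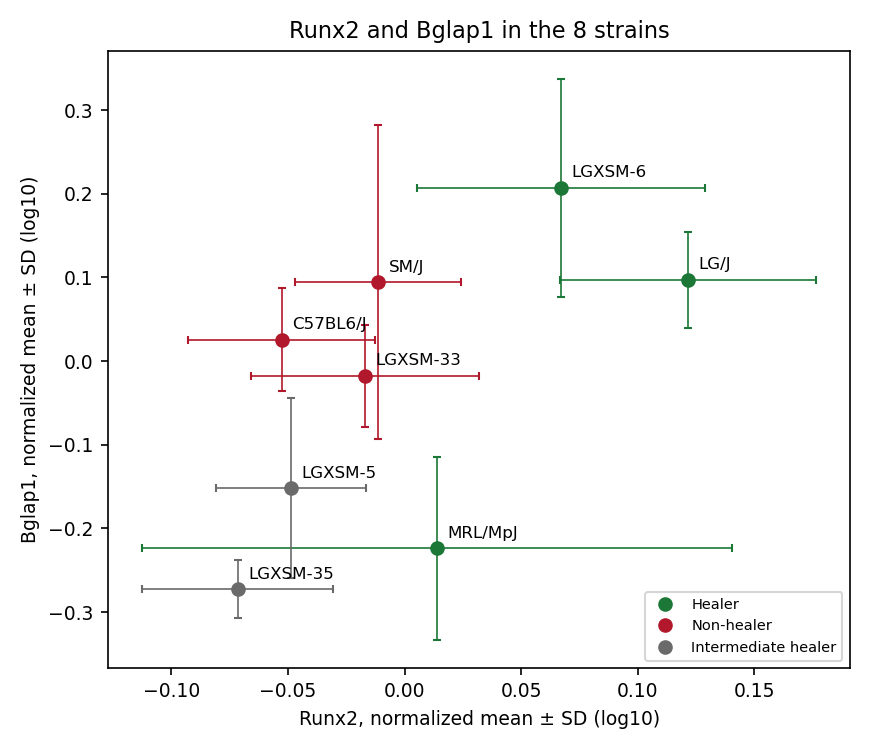
Normalized level of *Bglap1* against *Runx2* (log10, mean with SD over assay replicates) in the 8 strains, coloured by healing class. LG/J and LGXSM-6 lie at the top right, LGXSM-35 and LGXSM-5 at the bottom left, and MRL/MpJ combines a *Runx2* mean of 0.014 with a *Bglap1* mean of −0.224.

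The targets whose strain means were most like *Runx2* were *Mmp13* (*r* = 0.90 over 8 strains), *Pcna* (0.89), a clamp of the DNA polymerase that marks replicating cells, and *Mia1* (0.88), a protein secreted by chondrocytes. *Mmp13* and *Mia1* share the panel and the reference signals of *Runx2*. Those most like *Bglap1* were *Col2a1* (0.83), the main cartilage collagen, *Wisp1* (0.83), a WNT-induced matricellular protein, and *Mia1* (0.81). Of these, *Wisp1* shares the panel and the reference signals of *Bglap1*. *Mia1* was thus on both lists, and like *Runx2* it was highest in LG/J.

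Among 5 genes known to be regulated by RUNX2, all passed the test over strains with assay replicates, where 82.1% of all targets passed, and 2 with run means, where 14.9% did. Their median range between strains was 1.04 on the log2 scale, against 0.54 over the 67 targets. *Mmp13*, a collagenase of hypertrophic cartilage and bone, was highest in LGXSM-6 and lowest in C57BL6/J (1.24, adjusted *P* = 4.43e-10, run means 0.0477). It was higher in the healer in all 3 pairs, by 0.66, 0.51 and 0.50 (adjusted *P* = 0.00712, 0.0390 and 0.0122). *Ihh*, the hedgehog ligand of prehypertrophic chondrocytes, was highest in LG/J and lowest in LGXSM-5 (1.04, adjusted *P* = 2.11e-10, run means 0.00981), with a low median signal of 11. *Col10a1*, the collagen of hypertrophic cartilage, had the same highest and lowest strains (1.77, adjusted *P* = 9.53e-04, run means 0.50). *Col1a1*, the main bone collagen, moved least (0.43, LGXSM-33 over MRL/MpJ, adjusted *P* = 0.0123, run means 0.656). *Vegfa*, an angiogenic factor, was highest in LGXSM-35, the strain with the lowest *Runx2* and *Bglap1*, and lowest in LGXSM-33 (0.49, adjusted *P* = 6.66e-05, run means 0.353). In the 3 pairs, 2 of the 5 were higher in LG/J, 1 in MRL/MpJ and 2 in LGXSM-6 over assay replicates, and none was called lower in a healer, where 23.9%, 14.9% and 20.9% of all targets were called in either direction. None of these passed over run means.

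Of 14 mRNAs of signals that act on bone formation, 9 passed over assay replicates and 2 over run means, against 82.1% and 14.9% of all targets, with a median range of 0.53 against 0.54. Those that passed over run means were *Igf1*, a growth factor, highest in LGXSM-33 and lowest in LGXSM-5 (1.33, adjusted *P* = 2.72e-11, run means 0.0144), and *Wisp1*, highest in LGXSM-6 and lowest in LGXSM-35 like *Bglap1* (0.84, adjusted *P* = 2.11e-10, run means 0.0148). *Fgf18*, a growth factor of cartilage and bone, ranged by 1.28 with LGXSM-33 highest and LG/J lowest (adjusted *P* = 1.33e-08, run means 0.0630). The range of *Tgfb1*, a growth factor stored in bone matrix, was 0.44 (LGXSM-6 over LGXSM-5, adjusted *P* = 1.38e-06).

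Among the BMP pathway members, *Smad1*, a transducer of BMP signals, ranged by 0.54 (LGXSM-6 over C57BL6/J, adjusted *P* = 2.02e-05), *Smad4*, the common SMAD, by 0.26 (LGXSM-6 over LGXSM-5, 0.00472) and *Chrdl1*, a BMP antagonist, by 0.51 (LGXSM-6 over C57BL6/J, 1.99e-04). The ligand *Bmp6* did not pass (0.22, LGXSM-33 over MRL/MpJ, 0.191). Among the WNT pathway members, the feedback inhibitor *Axin2* ranged by 0.62 (LG/J over C57BL6/J, adjusted *P* = 5.40e-05) and was the only one of the 14 that differed between MRL/MpJ and C57BL6/J (0.54, SE 0.12, adjusted *P* = 3.39e-04). The ligands *Wnt3a* (0.52, LGXSM-5 over LG/J, 0.0540) and *Wnt16* (0.57, LG/J over SM/J, 0.151), the receptor *Fzd2* (0.24, LGXSM-5 over SM/J, 0.805) and the transcription factor *Lef1* (0.36, LG/J over MRL/MpJ, 0.171) did not pass over strains. Their median signals were low, at 7, 16, 5 and 17.5 in this order, so a strain difference could have gone unseen. *Pthlh*, the parathyroid hormone-like ligand of the growth plate, ranged by 0.60 (LGXSM-33 over SM/J, adjusted *P* = 0.0448) with a median signal of 5.24. In the 3 pairs of healer and non-healer, against the same shares of all targets, 1 of the 14 was higher in each healer (*Wnt16*, *Axin2* and *Wisp1*) and 1, *Tgfb1*, was lower in LG/J. None passed over run means.

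**Figure D5:**
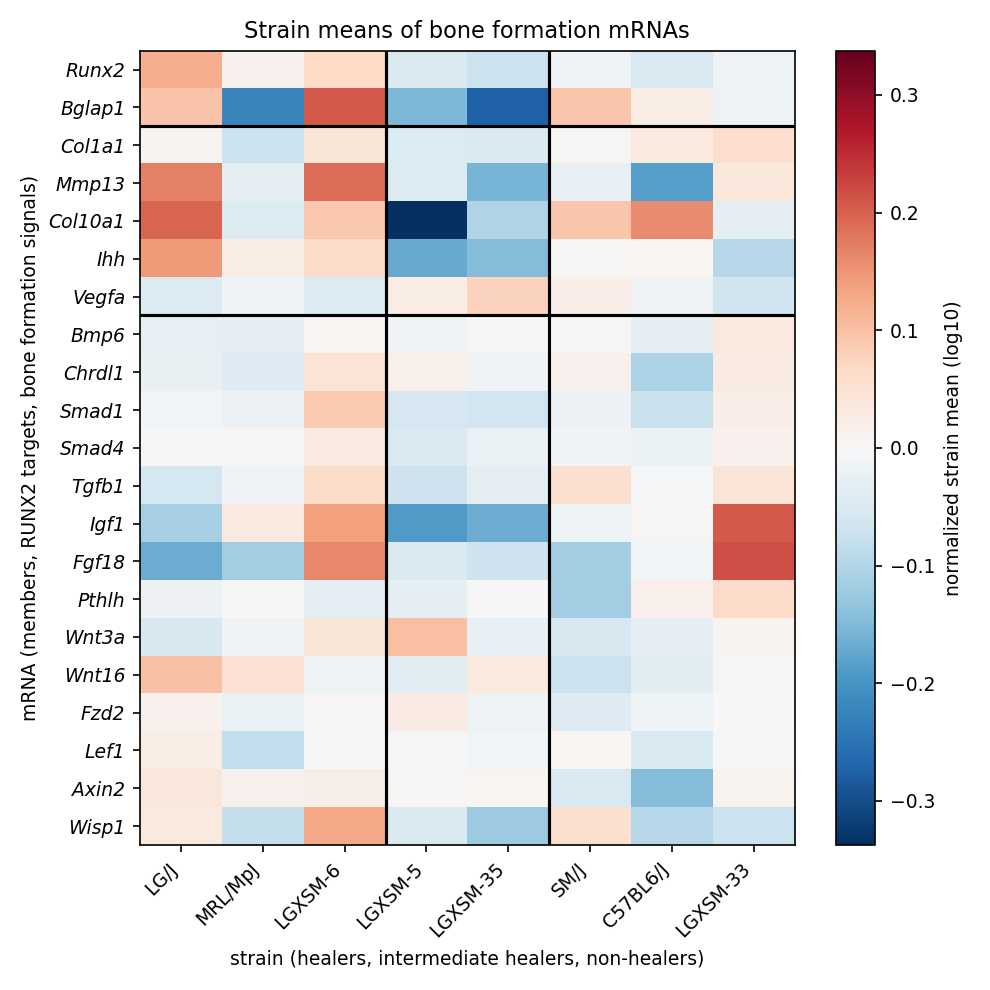
Strain means of the normalized level (log10, red above and blue below the level predicted from the reference genes) for *Runx2* and *Bglap1* (top block), genes regulated by RUNX2 (middle) and signals of bone formation (bottom), with strains ordered as healers, intermediate healers and non-healers. *Mmp13* is high in LG/J and LGXSM-6 like *Runx2*, and *Igf1* and *Fgf18* are highest in LGXSM-33.

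Marker lists of the tissues in the homogenate were set beside both mRNAs. The mean normalized level of 5 cartilage markers (*Col2a1*, *Acan*, *Comp*, *Mia1* and *Sox9*) was highest in LGXSM-6, at 0.170, and lowest in LGXSM-5, at −0.174, with *r* = 0.82 to *Runx2* and 0.76 to *Bglap1* over the 8 strains. All 5 differed between strains over assay replicates, against 82.1% of all targets, and 1 of them, *Mia1*, over run means. Their summed signal ranged over strains from 3167 in SM/J to 13352 in LGXSM-6. For 3 hypertrophic cartilage markers (*Col10a1*, *Ihh* and *Mmp13*) *r* was 0.88 and 0.79, with mean levels from −0.184 in LGXSM-5 to 0.170 in LG/J. Their summed signal ranged from 342 in SM/J to 2822 in LGXSM-6. The other bone matrix mRNA, *Col1a1*, had a median signal of 24459, with *r* = 0.26 to *Runx2* and 0.80 to *Bglap1*. For *Mmp9*, the marker of bone resorption and marrow, *r* was 0.33 and 0.35. For 3 fat markers it was −0.61 and −0.17, with summed signals of 33.3 to 71.9. No marker was at 0 in any assay replicate, but some signals were low. The lowest single signal was 7 among the cartilage markers, 4 among the hypertrophic markers and 6 among the fat markers. Median signals were 11 for *Ihh* and *Lep* and 8 for *Retn*. No detection limit was set, so a signal above 0 need not mean that the mRNA was detected. Over assay replicates LG/J was higher than SM/J in *Acan* (0.81, adjusted *P* = 0.0444), *Mia1* (0.43, 0.0444) and *Mmp9* (0.61, 2.51e-05) and lower in *Adipoq*, an adipocyte hormone (log2 difference −1.09, 8.33e-06). MRL/MpJ was lower than C57BL6/J in *Mmp9* (−0.50, 4.18e-04), and LGXSM-6 was higher than LGXSM-33 in *Col2a1* (0.72, 0.0198) and *Mia1* (0.77, 3.33e-06). Of the hypertrophic markers *Ihh* was higher in LG/J than in SM/J (0.47, 0.00968) and in LGXSM-6 than in LGXSM-33 (0.54, 3.25e-04), *Mmp13* was higher in all 3 healers, and *Col10a1* was called in none of the pairs. None of these marker differences passed over run means. How far the makeup of the sections entered the levels of *Runx2* and *Bglap1* was not tested.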

How the data were processed

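Expression was measured with the QuantiGene Plex assay in homogenates of formalin-fixed knee joint sections of 8 strains, grouped by the strain and healing class in the labels. The authors deposited log10 signals of every assay replicate and normalized log10 values, which per the study's methods are residuals from regression on the reference genes. The methods state that background was subtracted, and the files give no bead count for a value, so no interval was set on single values. The deposited *Bglap1* residuals lay on a plane in *Gapdh* and *Hprt1* with slopes of 0.25 and 0.57, where least squares over all 78 assay replicates gave 0.20 and 0.60. For *Runx2* the recomputed residuals differed in Signal 9 of LGXSM-35 by 0.0547 and by at most 6.75e-06 elsewhere. The deposited values were used. Strain averages and fold changes of the authors, and the miRNAs, were not used.

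Tests were made with limma 3.58.1 in R 4.3.3, fitted to the normalized values of all 67 targets with strain as the factor and shown in log2 units, with a threshold of 0.05. The rest was done in Python 3.11.15 with pandas 2.3.3, numpy 2.4.6 and scipy 1.17.1, and plots with matplotlib 3.10.9. H2 was Vb/(Vb + Vw). Alternatives were recomputed residuals, unnormalized signals, the ratio to the reference genes, a filter on low signals that kept 50 targets, an intensity trend, 100000 permutations of *F*, strain medians, the 6 strains of the cross and leaving out strains. Added after seeing the data were run means, leaving out each run, Signal 9 of LGXSM-35 or the low SM/J run. For LG/J and SM/J in the first panel, with 8 signals, the incomplete run was placed where the reference genes spread least. Steps were tested on simulated data with independent noise in each assay replicate and no runs, which cannot check the false calls of tests over assay replicates. Named mRNAs were the members, 5 genes regulated by RUNX2, 14 bone formation signals, the 3 targets most like each member, marker lists and the reference genes. The members and lists were chosen with earlier results of these data known.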

Additional observations from a re-analysis of the deposited data

Results flagged for a closer look

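*Bglap1* differed in its healer and non-healer difference between all 3 pairs over assay replicates (limma, difference of log2 differences, adjusted over 67 targets). The difference of LG/J from SM/J was 0.84 above that of MRL/MpJ from C57BL6/J (SE 0.23, adjusted *P* = 0.00541) and 0.74 below that of LGXSM-6 from LGXSM-33 (value −0.74, SE 0.21, adjusted *P* = 0.00548). Over run means neither passed (adjusted *P* = 0.639 and 0.374). Without the last SM/J run LG/J was 0.42 above SM/J instead of 0.01, and the values above include that run. The share of the 67 targets that passed such comparisons is not given here. The difference of MRL/MpJ from C57BL6/J against that of LGXSM-6 from LGXSM-33 was −1.57 and passed both ways. No single assay replicate stood apart by Dixon's test in the 12 groups of 8 or 9 that were looked at, a test that cannot see runs of alike values such as those of SM/J in *Bglap1* and MRL/MpJ in *Runx2*.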

How the results depend on the processing

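No paired analysis was possible because each strain is 1 labelled sample and the signal numbers do not name a shared mouse or day. Over run means *Runx2* ranged by 0.63 over strains (adjusted *P* = 0.110, 0.76 with 0.289 for the ratio, and 2.54 with 0.00852 without normalization), 0 *Runx2* pairs passed (limma, all 28 adjusted with the other targets) and 7 *Bglap1* pairs, and the calls of *Runx2* in LG/J (0.44) and LGXSM-6 (0.28) and of *Bglap1* in MRL/MpJ (−0.83) and LGXSM-6 (0.75) were lost. Fewer values are tested there. Without normalization 7 *Bglap1* pairs passed, H2 of *Bglap1* was 42.5%, *Bglap1* in healers was 0.76 and *Runx2* 1.31 above non-healers, LG/J was 1.57 above SM/J and LGXSM-6 1.52 above LGXSM-33 in *Runx2* (the latter 0.51 with the ratio), LGXSM-6 was 1.5 above LGXSM-33 in *Bglap1*, MRL/MpJ differed from C57BL6/J by 0.0079 in *Bglap1* and by 0.85 in *Runx2* (adjusted *P* = 0.00560), and *Bglap1* over run means ranged by 2.10 (adjusted *P* = 0.0716). With the ratio MRL/MpJ was below C57BL6/J in *Runx2* (−0.15), LG/J below SM/J in *Bglap1* (−0.017, with −0.0078 for recomputed residuals and −0.17 without the low SM/J run), and *r* of the 2 mRNAs was 0.75 (exact permutation *P* = 0.0372). With strain medians *r* was 0.82 and healers were 0.083 above non-healers in *Bglap1* and 0.20 in *Runx2*. The cause of these changes was not tested.

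Leaving out 1 of the 26 runs at a time, the strain range was 0.52 to 0.73 for *Runx2* and 1.38 to 1.76 for *Bglap1*, with 11 to 15 and 17 to 22 pairs passing. LG/J minus SM/J was 0.32 to 0.53 in *Runx2* and −0.22 to 0.42 in *Bglap1*. MRL/MpJ minus C57BL6/J was −0.050 to 0.39 and −1.01 to −0.60. LGXSM-6 minus LGXSM-33 was 0.20 to 0.36 and 0.54 to 0.91. Leaving out 1 run or 1 strain at a time, healers minus non-healers was 0.22 to 0.40 and −0.32 to 0.39. *r* was 0.40 to 0.76 and H2 33.8% to 67.4% for *Runx2* and 63.7% to 79.7% for *Bglap1*. The *Bglap1* class difference changed sign in 8 of these 32, by values up to 0.39 (without MRL/MpJ).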
